A study of Homo sapiens with 8 samples.

Results

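The genes described here are BIRC7 and 7 others of the inhibitor of apoptosis protein (IAP) pathway: the IAP genes BIRC2, BIRC3, BIRC6 and XIAP, the mitochondrial IAP antagonists DIABLO and HTRA2, and the initiator caspase CASP9. They were selected by family membership, with BIRC7 as the lead because it was among the strongest increases after NAT10 knockdown, and they make up 8 of the 86369 gene identifiers in the count table. HepG2 cells, an established hepatocellular carcinoma line, received by lipofection either a short interfering RNA (siRNA) against NAT10, an RNA cytidine acetyltransferase (siNAT10, n = 4 libraries), or a negative control siRNA (siControl, n = 4 libraries). RNA was taken on day 2. Replicates 1 and 2 of both groups carry the label batch 1 and replicates 3 and 4 the label batch 2, and nothing in the labels says what a batch is or whether libraries of one group came from separate cultures, so that p-values measure the spread between these libraries only. The sequence and number of the siRNAs are not given in the sources used here.

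IAP proteins carry BIR domains, with which several of them bind caspases, and most also carry a RING domain that makes them ubiquitin ligases. XIAP inhibits caspases by direct binding, the cIAPs encoded by BIRC2 and BIRC3 act mainly as ubiquitin ligases in TNF receptor and NF-kB signalling, and BIRC6 is a giant protein with its own ubiquitin-conjugating domain. BIRC7, also known as livin or ML-IAP, is a short IAP with 1 BIR domain, described in melanoma as a target of the transcription factor MITF. DIABLO and HTRA2 are released from mitochondria and bind BIR domains, which frees caspases, and CASP9 is activated on the apoptosome.

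The start regions of BIRC7 and BIRC3 are shown because they belong to the 2 genes of the group with no GC box in any listed window, and because BIRC7 carries the E-box letters named below. Each window runs from 250 bases before to 50 bases after a transcription start in RefSeq (GRCh38.p14). All 8 genes matched, through 17 windows since 6 of them have more than 1 listed start. BIRC7 and BIRC3 are the 2 with only 1 listed window, so the other 6 had more sequence in which a motif could match. Capitals mark matches, on either strand, to 5 motifs: the E-box CACGTG and its variant form CATGTG, of the kind MITF and its relatives read, the TATA box motif TATAAA, the GC box motif GGGCGG and the kappaB consensus of NF-kB. No matches overlap in the printed windows.
BIRC7 (chr20:63235655-63235954, plus strand): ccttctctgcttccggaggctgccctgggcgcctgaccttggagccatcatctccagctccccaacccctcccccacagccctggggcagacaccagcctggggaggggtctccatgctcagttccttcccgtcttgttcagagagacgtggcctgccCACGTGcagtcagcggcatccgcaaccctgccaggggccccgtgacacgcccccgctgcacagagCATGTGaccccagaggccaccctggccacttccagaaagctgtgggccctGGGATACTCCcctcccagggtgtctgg
BIRC3 (chr11:102317234-102317533, plus strand): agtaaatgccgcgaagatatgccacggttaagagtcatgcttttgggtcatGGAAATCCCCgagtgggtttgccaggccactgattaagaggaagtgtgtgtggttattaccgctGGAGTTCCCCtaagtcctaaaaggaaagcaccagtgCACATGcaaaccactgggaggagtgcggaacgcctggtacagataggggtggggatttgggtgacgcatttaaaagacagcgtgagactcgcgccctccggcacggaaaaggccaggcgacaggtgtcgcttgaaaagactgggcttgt

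In the BIRC7 window the CACGTG begins at base -92 and the CATGTG at base -27 relative to the start, and a kappaB match lies at base 24 downstream. Over all 35116 windows of this length, 7.26% hold CACGTG, 11.1% hold CATGTG, 5.91% hold a kappaB match, 45.0% hold GGGCGG and 11.5% hold TATAAA. Of the 8 genes, CACGTG was found in BIRC7 and in 1 of the DIABLO windows, and CATGTG in BIRC7, BIRC3, XIAP and HTRA2. GGGCGG was found in at least 1 window of the 6 genes BIRC2, BIRC6, XIAP, DIABLO, HTRA2 and CASP9, all of which have more than 1 window. It was in neither BIRC7 nor BIRC3, which have only 1 window each, and TATAAA was in 0 of the 17 windows. The BIRC7 window held 10 CpG dinucleotides, against a median of 14 over all windows, at a GC content of 67.0%. The 2 kappaB matches of BIRC3, at bases -199 and -135, lie in a gene long known as an NF-kB target. These matches are descriptions of letters and not measured binding.

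The libraries held 9731718 to 27977110 counts, the siNAT10 libraries of batch 2 being the shallowest, and 13840 genes passed the filter on low counts. NAT10 itself stood at 39.2 to 77.8 CPM (counts scaled to library size and composition) in siControl and 12.2 to 22.3 CPM in siNAT10. Of 8 hepatocyte lineage markers 7 reached 1 CPM, from SERPINA1 at 1.70 to 13.2 CPM up to albumin at 3232 to 4627 CPM. APOB stayed under 1 CPM in all libraries. The summed hepatocyte markers ran from 9047 to 9626 CPM in siControl and from 7116 to 7833 CPM in siNAT10. Of the 7 that were tested, 6 had a negative log2 fold change, among them APOA1 at only -0.0083. FGB had a positive one of 0.37 and was not called (edgeR adjusted p 0.17). In any library the fibroblast markers summed to at most 1.38 CPM and the endothelial markers to at most 0.80 CPM. The melanocyte markers summed to at most 3.39 CPM. Of the 5 leukocyte markers PTPRC and CD3E were at 0, CD68 stood at 1.55 to 2.81 CPM and LYZ at 330 to 552 CPM. CD14 stood at 0.08 to 2.00 CPM, with a log2 fold change of -1.22, and was not called (edgeR adjusted p 0.20). Of these markers TF (log2 fold change -0.49, edgeR adjusted p 0.023) and LYZ (-0.42, edgeR adjusted p 0.043) were called lower in siNAT10, and their part in the results below was not tested.

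BIRC7 (ENSG00000101197, chr20:63235883-63240495, plus strand) was the gene of the group that stood apart between the siRNA groups. Its level was 45.9, 48.8, 38.9 and 33.4 CPM in siControl replicates 1 to 4 and 110.2, 93.5, 60.4 and 66.6 CPM in siNAT10 replicates 1 to 4. The lowest siNAT10 library lay above the highest siControl library, so the groups did not overlap, as in 2.25% of all tested genes with siNAT10 higher (and 3.15% with siNAT10 lower), and both groups were lower in batch 2. Means were 41.7 ± 6.95 and 82.7 ± 23.3 CPM (SD, n = 4 each), and the fit put the difference at 0.96 on the log2 scale (SE, standard error, 0.11). This is the value by which BIRC7 was chosen, so it is given as a description and no test is attached to it. Among the 96 genes that were called higher and averaged at least 8 CPM, BIRC7 had the third largest fold change, just after DDC (log2 fold change 0.97) and just before CYP24A1 (0.95). Without the limit of 8 CPM it ranked 13 among the 113 genes called higher. Among all 13840 genes tested, called or not, its fold change ranked 68.

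Taken separately, batch 1 gave BIRC7 a log2 fold change of 1.11 and batch 2 one of 0.81. How far these 2 values lie apart did not choose the gene, and the interaction term put it at -0.30 (SE 0.22, unadjusted p = 0.19 by edgeR). No gene was called for this interaction, 0 of 13840 or 0% (421 at an unadjusted p under 0.05; DESeq2 called 1). When each library was left out in turn the BIRC7 value ran from 0.88 to 1.05. BIRC7 rested on 462 to 2691 counts per library.

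**Figure D1:**
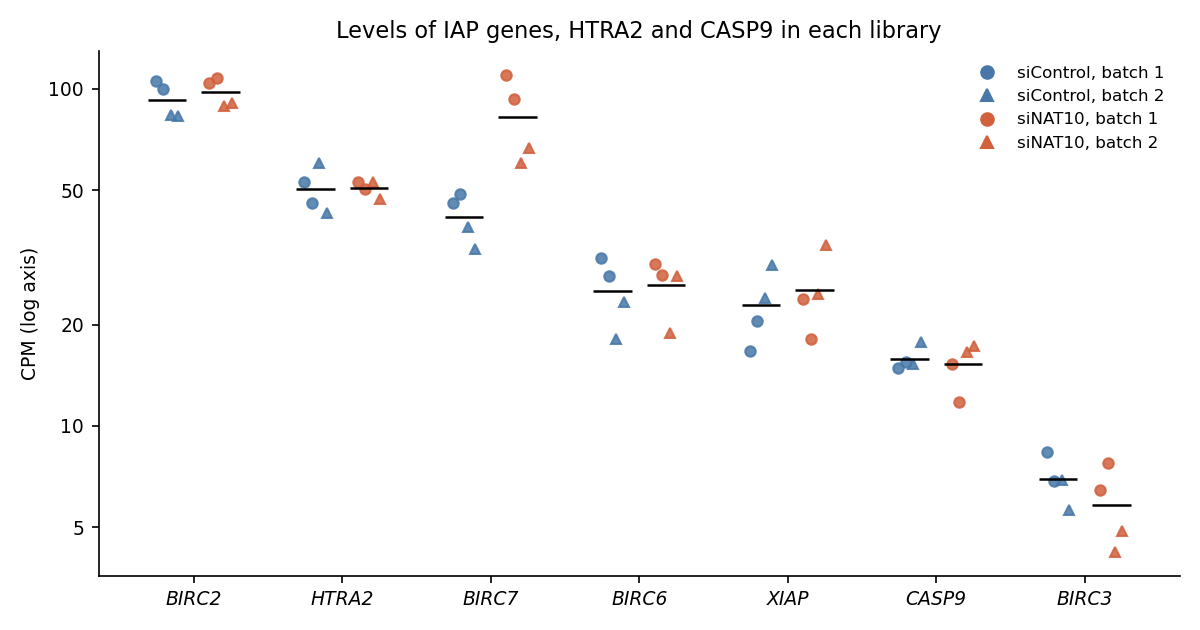
Level of each gene in each library (y axis, CPM on a log axis), with genes ordered by their siControl mean; colour gives the siRNA, shape the batch, and black lines the group means of 4 libraries. BIRC7 is the only gene shown whose siNAT10 points all lie above its siControl points, and DIABLO, under 0.2 CPM, is not drawn.

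Within 100000 bases on either side of BIRC7, 2 of the 12 other annotated genes passed the filter on low counts. YTHDF1, which encodes a reader of N6-methyladenosine, had a log2 fold change of -0.02 (SE 0.10, 95% interval -0.24 to 0.20) and was not called (edgeR adjusted p 0.95). ARFGAP1, an activator of an ARF GTPase, had 0.31 (SE 0.10, 95% interval 0.085 to 0.53), with 0.27 in batch 1 and 0.34 in batch 2. In each batch both its siNAT10 libraries lay above both its siControl libraries, and the share of all tested genes that do so was not counted. ARFGAP1 had an unadjusted p of 0.0095 and missed the threshold after adjustment over all genes (edgeR adjusted p 0.15). NKAIN4 ends 289 bases beyond the BIRC7 3' end on the opposite strand, where reads from the 2 genes could be mixed if counting ignored strand, and it had 0 counts in all 8 libraries. MIR3196, inside BIRC7, also had 0 counts.

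The genes whose profile over the 8 libraries was most like that of BIRC7, with each batch mean removed, were SMIM15 (Pearson r = 0.99), PDK3 (0.99), PPP4R2 (0.98), CSNK1G1 (0.98) and PRXL2C (0.97), out of 8588 genes with at least 8 CPM. PDK3 encodes a pyruvate dehydrogenase kinase, PPP4R2 a regulatory subunit of protein phosphatase 4 and CSNK1G1 a casein kinase. These coefficients are descriptions over n = 8 libraries that share the siRNA difference and their scaling. SMIM15 went from 21.6, 22.7, 42.4 and 42.7 CPM in siControl to 44.2, 41.2, 62.5 and 67.0 CPM in siNAT10 and was higher, not lower, in batch 2, so that without removing batch means its coefficient with BIRC7 was 0.29. Among the other genes of the group BIRC2 came closest to BIRC7, at r = 0.71 and rank 764, followed by XIAP at 0.42, HTRA2 at 0.17, BIRC6 at 0.14 and CASP9 at -0.26. BIRC3 and DIABLO were under 8 CPM and were not compared.

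The other 4 IAP genes of the group differed between siRNA groups by less than the spread between libraries. Of the 7 genes of the group that were tested, 1 was called at an adjusted p under 0.05, beside 2.28% of all genes tested (0.816% higher and 1.46% lower), and that 1 was BIRC7, which the same contrast had chosen. None of the other 6 reached even an unadjusted p under 0.05 in edgeR, and DESeq2 called 0 of them. Their fitted log2 fold changes ran from -0.26 to 0.15 with a median of 0.04, against -0.0024 over all genes tested.

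BIRC2 (cIAP1; ENSG00000110330, chr11:102347211-102378670) was the most abundant gene of the group. It stood at 105.3, 100.03, 83.4 and 83.02 CPM in siControl and 104.2, 107.9, 89.2 and 90.7 CPM in siNAT10, where the 2 batches are apart and the 2 siRNA groups overlap. Its log2 fold change of 0.08 had a 95% interval from -0.11 to 0.27, so a change of the size seen for BIRC7 lies outside it. BIRC3 (cIAP2; ENSG00000023445, chr11:102317484-102339403) lies 7808 bases upstream of BIRC2 on the same strand. BIRC3 was 8.36, 6.85, 6.93 and 5.64 CPM in siControl and 6.46, 7.79, 4.23 and 4.89 CPM in siNAT10, on 50 to 230 counts per library. The interval of its log2 fold change of -0.26 ran from -0.62 to 0.10, so that this thinly covered gene is known less precisely than its neighbour.

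XIAP (ENSG00000101966, chrX:123859712-123913972) was 16.7, 20.4, 23.99 and 29.99 CPM in siControl and 23.9, 18.1, 24.6 and 34.5 CPM in siNAT10. The groups overlapped, with a log2 fold change of 0.15 and a 95% interval from -0.14 to 0.45. BIRC6 (ENSG00000115760, chr2:32357023-32619571) was 31.5, 27.9, 18.1 and 23.3 CPM in siControl and 30.2, 28.02, 18.9 and 27.8 CPM in siNAT10. Its log2 fold change was 0.06, with an interval from -0.22 to 0.35. For both genes the libraries sorted by batch and not by siRNA.

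The antagonists and the caspase gave no difference between the groups that exceeded their spread. HTRA2 (ENSG00000115317, chr2:74529596-74533350), a mitochondrial serine protease, stood at 50.5 ± 7.71 CPM in siControl and 50.9 ± 2.67 CPM in siNAT10 (SD, n = 4 each), with a 95% interval of the log2 fold change from -0.23 to 0.25. LOXL3 lies on the other strand over the HTRA2 3' end, and it had 26 to 99 counts per library against 483 to 1458 for HTRA2. CASP9 (ENSG00000132906, chr1:15490832-15526534) stood at 15.8 ± 1.28 and 15.3 ± 2.44 CPM (SD, n = 4 each), with an interval from -0.34 to 0.20. CELA2B, which covers the CASP9 3' end on the other strand, had at most 1 count in a library.

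DIABLO (ENSG00000184047, chr12:122207663-122227456) could not be measured, with 3, 1, 3 and 0 counts in the siControl libraries, 3, 5, 0 and 2 in the siNAT10 libraries, and a sum of 7 against 10. It did not pass the filter, and no fold change is given. Another 2 annotated protein-coding genes, ENSG00000284934 and ENSG00000256861, lie on the same strand over its 3' end, and both had 0 counts in all libraries. How the counting treated reads that fall in more than 1 gene is not given in the sources used here, and its part in the DIABLO count was not tested.

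The levels in siControl were ordered by CPM, from 3' end reads that do not scale with transcript length. The order was BIRC2 at 92.96 ± 11.4, HTRA2 at 50.5, BIRC7 at 41.7 and BIRC6 at 25.2 ± 5.80 CPM. XIAP at 22.8 ± 5.65, CASP9 at 15.8 and BIRC3 at 6.94 ± 1.12 CPM followed (means, SD, n = 4). DIABLO, which could not be measured, averaged 0.08 CPM and has no place in this order. The siControl ranges of 3 neighbouring pairs overlapped, HTRA2 with BIRC7, BIRC6 with XIAP and XIAP with CASP9. In siControl HTRA2 was above BIRC7 in 3 of 4 libraries, and in siNAT10 BIRC7 was above HTRA2 in 4 of 4. BIRC6 and XIAP exchanged places by batch, with BIRC6 above XIAP in 2 of 4 libraries of each group.

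Because the counts of different genes come from the same libraries, the make-up of the IAP counts can be read without scaling. The 6 IAP genes with counts were BIRC7, BIRC2, BIRC3, BIRC6, XIAP and BIRC5 (survivin, a mitotic IAP and the most abundant of them, 173.9 ± 13.7 CPM in siControl and 158.3 ± 23.3 in siNAT10, SD, n = 4, log2 fold change -0.14, SE 0.11, not called). BIRC7 supplied 12.7%, 12.6%, 11.1% and 9.48% of these counts in siControl replicates 1 to 4 and 27.5%, 22.6%, 16.0% and 17.0% in siNAT10 replicates 1 to 4. Wilson 95% intervals, which cover counting error only, reached at most 13.4% in siControl and began at 15.0% or above in siNAT10. Without BIRC5 the BIRC7 share was 19.04% to 23.9% in siControl and 29.7% to 40.1% in siNAT10. The sum of the other 5 genes ran from 312.96 to 339.8 CPM in siControl and from 290.9 to 325.7 CPM in siNAT10, ranges that overlap. The ratio of BIRC7 to XIAP counts was 1.11 to 2.75 in siControl and 1.93 to 5.17 in siNAT10, which overlap because XIAP was higher and BIRC7 lower in batch 2. These shares rest on the contrast that chose BIRC7 and are descriptions.

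**Figure D2:**
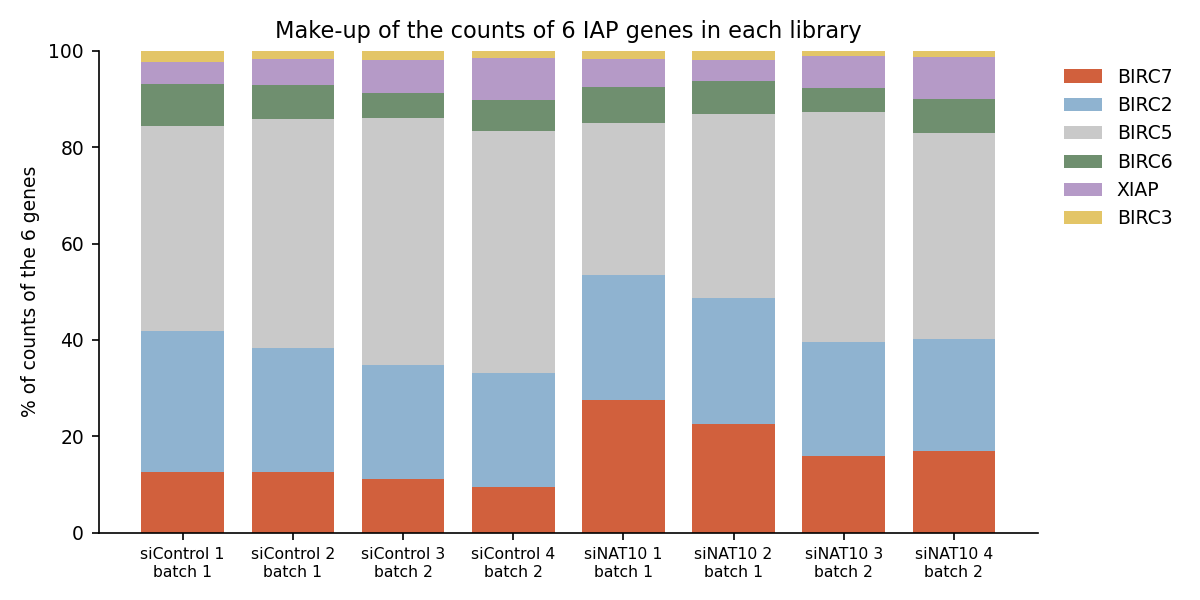
Share of the counts of 6 IAP genes that each gene supplied (y axis, percent; bars add to 100) in each library (x axis, with its batch). The BIRC7 segment, at the base of each bar, is 9.48% to 12.7% in siControl and 16.0% to 27.5% in siNAT10.

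The batch comparison did not choose these genes and was tested. Of the 7 tested genes, 4 were called between batch 2 and batch 1 (edgeR adjusted p under 0.05), 3 lower and 1 higher in batch 2, beside 25.3% of all genes tested (13% higher and 12.2% lower in batch 2). BIRC7 was lower in batch 2 with a log2 fold change of -0.54 (SE 0.11, edgeR adjusted p 0.0020), and this call was kept in all 8 fits that left out 1 library. BIRC6 fell by 0.43 on the log2 scale (SE 0.13, edgeR adjusted p 0.027), from 29.4 ± 1.75 CPM in batch 1 to 22.02 ± 4.45 CPM in batch 2 (SD, n = 4 each). BIRC2 fell by 0.27 (SE 0.09, edgeR adjusted p 0.039), and its 4 batch 1 libraries all lay above its 4 batch 2 libraries.

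XIAP moved the other way, from 19.8 ± 3.13 CPM in batch 1 to 28.3 ± 4.95 CPM in batch 2 (SD, n = 4 each), a log2 fold change of 0.52 (SE 0.14, edgeR adjusted p 0.012) without overlap between the batches. BIRC3 was at -0.45 (SE 0.17), CASP9 at 0.22 (SE 0.13) and HTRA2 at 0.0085 (SE 0.12), and none of these 3 was called (edgeR adjusted p 0.064, 0.23 and 0.97). The BIRC2 call was lost in 7 of the 8 fits that left out 1 library, all but the one without siNAT10 replicate 4, with adjusted p from 0.061 to 0.11. The BIRC6 call was lost without siControl replicate 1, 2 or 3 or siNAT10 replicate 1 or 3 (0.051 to 0.10), the XIAP call without siControl replicate 1 or siNAT10 replicate 2 (0.055 and 0.056), and BIRC3 was called without siControl replicate 3 (0.039).

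**Figure D3:**
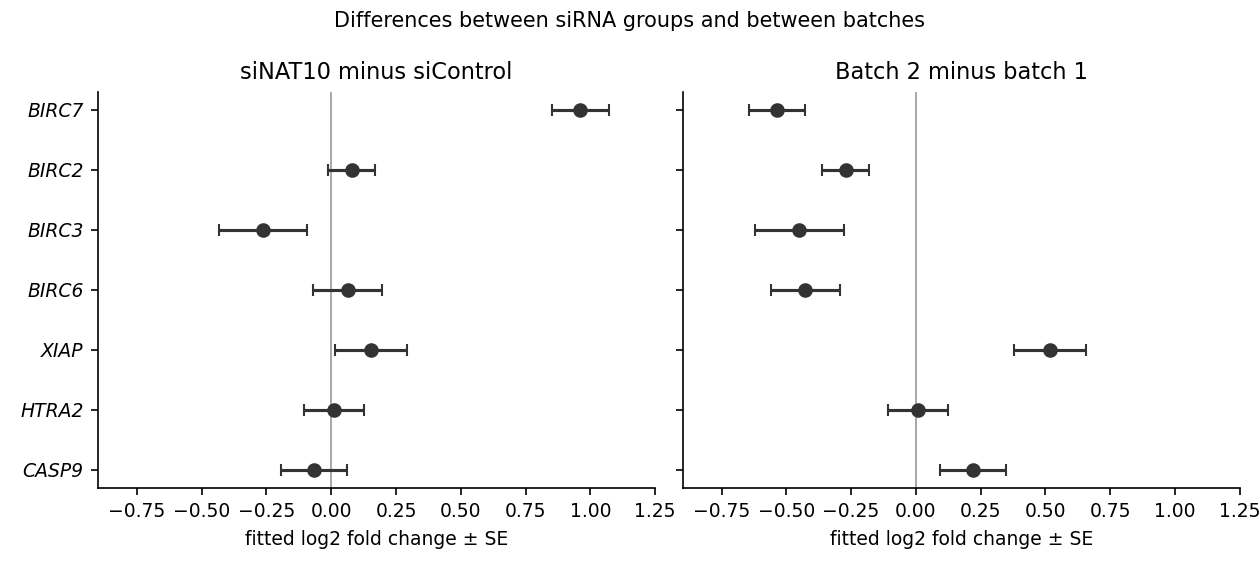
Fitted log2 fold change with its standard error (x axis) of each tested gene (y axis) between siRNA groups on the left and between batches on the right, both from the same fit of 8 libraries. BIRC7 alone lies far from 0 on the left, at 0.96, while on the right BIRC7, BIRC2, BIRC3 and BIRC6 lie below 0 and XIAP above it.

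The wider apoptosis machinery was read from 73 genes in 11 lists, of which 57 were tested. Of these, 2 were called higher and 1 lower in siNAT10, 5.26% of the list against 2.28% of all genes tested. The median log2 fold change was 0.04 beside -0.0024 over all genes. The lists were written with earlier results of these data known, so the share called, which rests on 3 genes, is a description. BIK and APAF1 rose and TRAF3 fell. Between batches 21 of the 57 were called, 12 higher and 9 lower in batch 2, beside the 25.3% of all genes tested (13% higher and 12.2% lower). The genes called between siRNA groups lie in 3 different lists: BH3-only proteins, the apoptosome and cIAP partners.

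BIK (ENSG00000100290, chr22:43110750-43129712), a BH3-only protein of the endoplasmic reticulum that sets off the mitochondrial pathway, was 14.3, 16.2, 13.4 and 16.3 CPM in siControl and 24.5, 23.3, 29.8 and 30.02 CPM in siNAT10. The groups did not overlap, as in 2.25% of all tested genes with siNAT10 higher. The highest 2 libraries were the siNAT10 libraries of batch 2, whereas for BIRC7 they were those of batch 1. The log2 fold change was 0.83 (SE 0.12, edgeR adjusted p 0.0021), and the batches taken separately gave 0.66 and 1.02. The call was kept in all 8 fits that left out 1 library and lost without the batch term (adjusted p 0.062) and in batch 2 alone (0.16). The other 6 tested BH3-only genes ran from -0.17 to 0.27, the upper end being BCL2L11 (BIM), which also did not overlap between groups but was not called (SE 0.12, edgeR adjusted p 0.27). BBC3 (PUMA), the most abundant of them, was 173.1 ± 72.9 and 197.4 ± 76.6 CPM (SD, n = 4 each) and differed mainly between batches, 246.2 ± 34.2 CPM in batch 1 against 124.3 ± 22.1 in batch 2.

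APAF1 (ENSG00000120868, chr12:98645290-98735433), the scaffold on which CASP9 is activated, was 12.5, 15.1, 10.8 and 12.4 CPM in siControl and 21.02, 22.7, 15.2 and 14.3 CPM in siNAT10. Within each batch both siNAT10 libraries lay above both siControl libraries, while over all 8 libraries the groups overlapped. The share of all tested genes that sort this way within each batch was not counted. The log2 fold change was 0.52 (SE 0.13, edgeR adjusted p 0.041), with 0.67 in batch 1 and 0.36 in batch 2. The call was lost without siControl replicate 1, 2 or 3 or siNAT10 replicate 1, 2 or 3 (adjusted p 0.068 to 0.18), without the batch term (0.43), in batch 2 alone (0.77) and after thinning to the smallest library (0.090). CYCS, the cytochrome c that completes the apoptosome, had 0.11 (SE 0.11) and was not called (edgeR adjusted p 0.70).

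TRAF3 (ENSG00000131323, chr14:102777449-102911500), the adaptor through which BIRC2 and BIRC3 keep the kinase MAP3K14 low, was 18.9, 20.02, 26.9 and 26.7 CPM in siControl and 15.0, 12.2, 21.5 and 15.7 CPM in siNAT10. Each siNAT10 library lay below both siControl libraries of its batch, and the share of all tested genes that do so was not counted. The log2 fold change was -0.52 (SE 0.13, edgeR adjusted p 0.038), at -0.52 in both batches. The call was lost in 7 of the 8 fits that left out 1 library, all but the one without siNAT10 replicate 3 (adjusted p 0.064 to 0.16), without the batch term (0.49), in either batch alone (0.14 and 0.66), with library size alone (0.052) and after thinning (0.074). Of the other 17 tested genes of this list, 0 were called, with log2 fold changes from -0.46 to 0.41 and 6 at an unadjusted p under 0.05. TAB1 did not overlap between groups, as in 3.15% of all tested genes with siNAT10 lower, but was not called. Its log2 fold change was -0.31 (SE 0.11, edgeR adjusted p 0.15). RBCK1, the most abundant of the list, was 399.7 ± 55.1 and 342.1 ± 47.6 CPM (SD, n = 4 each).

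**Figure D4:**
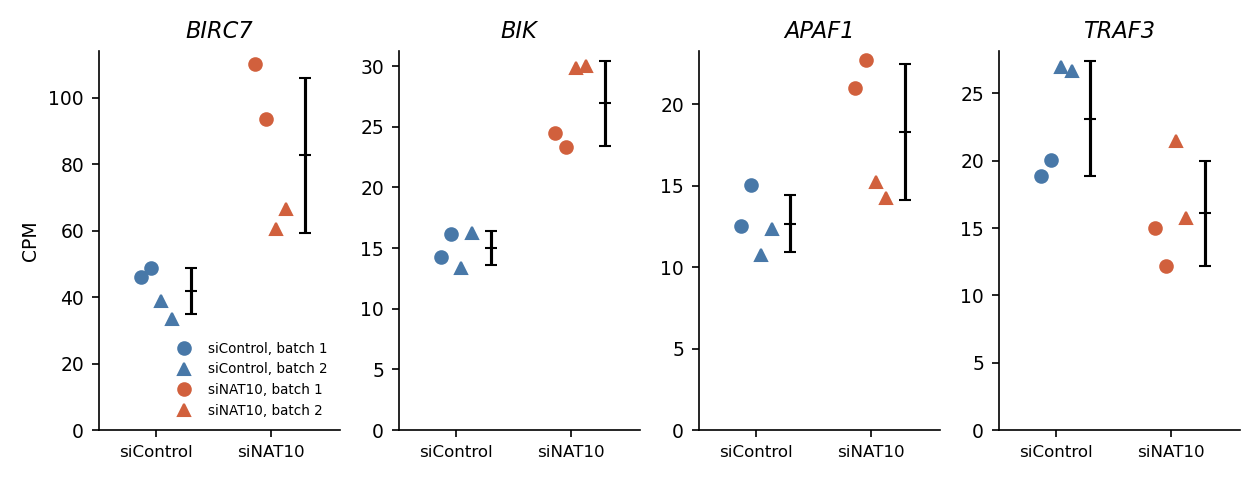
CPM (y axis, from 0) of BIRC7, BIK, APAF1 and TRAF3 in each library; colour gives the siRNA, shape the batch, and bars the mean ± SD of 4 libraries. BIRC7 and BIK do not overlap between groups, while APAF1 and TRAF3 overlap unless read within a batch.

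No other list held a called gene. NAIP and BIRC8, the remaining IAP genes, were at 0, and the IAP antagonists XAF1 and SEPTIN4 stayed under 1 CPM in all libraries. CASP8, the initiator caspase of the death receptors and the most abundant of the other caspases, was 60.4 ± 25.2 CPM in siControl and 71.1 ± 17.02 CPM in siNAT10 (SD, n = 4 each). The 4 tested anti-apoptotic BCL2 genes ran from -0.18 to 0.11, with MCL1 at 754.2 ± 84.3 and 691.6 ± 121.9 CPM. The pore-forming effectors BAX, BAK1 and BOK ran from -0.18 to 0.23, and the 8 death receptor and adaptor genes from -0.32 to 0.33. The 6 genes listed under caspase substrates ran from -0.25 to 0.47. The most abundant death receptor gene, TNFRSF1A, was 160.8 ± 10.3 and 172.1 ± 28.4 CPM, and the most abundant substrate gene, LMNA (lamin A/C), was 623.6 ± 131.2 and 660.1 ± 67.01 CPM (SD, n = 4 each). The upper end of the range of the substrate list was DFFB, the nuclease that caspase activity releases, chosen for mention after its value was seen. DFFB missed the threshold (SE 0.13, edgeR adjusted p 0.066) and was called by DESeq2, with library size alone, with the replicate block, without the low-count filter and without siNAT10 replicate 4.

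**Figure D5:**
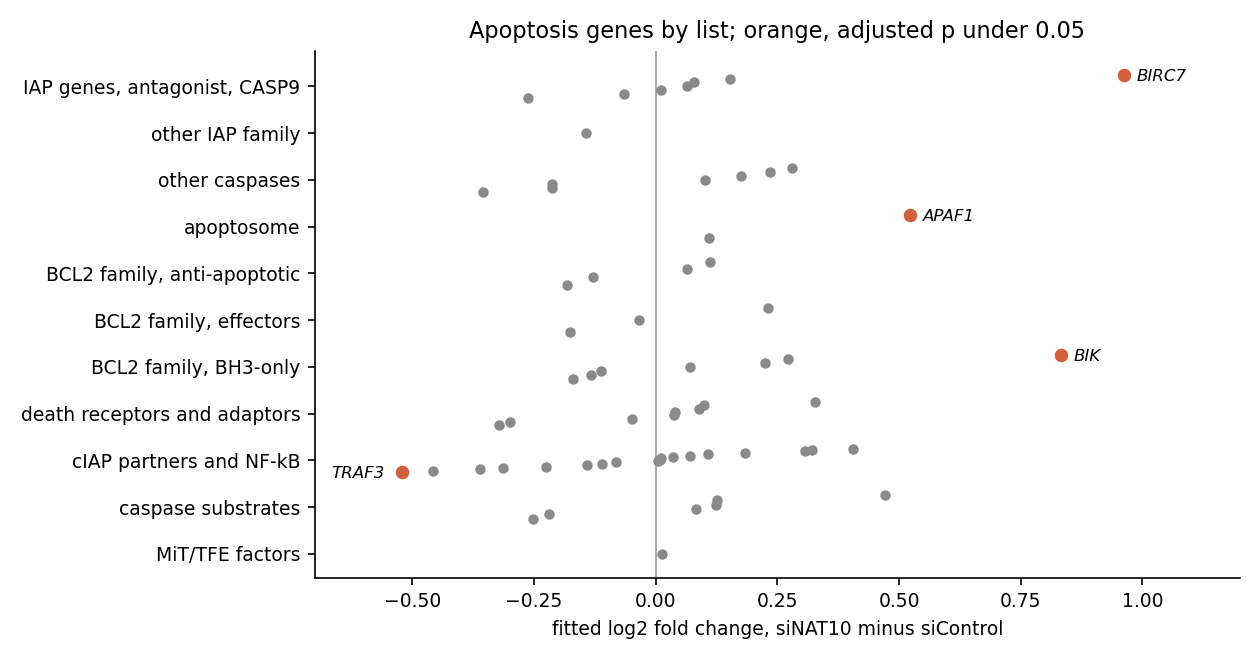
Fitted log2 fold change between siNAT10 and siControl (x axis) of each tested gene, by list (y axis); orange points have an edgeR adjusted p under 0.05. Most points lie within 0.5 of 0, BIK, APAF1 and TRAF3 are the called genes of the wider lists, and BIRC7 in the top row was chosen by this value.

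Of the MITF family, whose E-box letters occur in the BIRC7 window, MITF was under 1 CPM in all libraries (0 to 12 counts). TFE3 was at 0 and TFEC had at most 1 count. Whether a lack of expression lay behind these low counts was not tested. TFEB was the family member that was measured, at 15.2 ± 5.36 CPM in siControl and 15.04 ± 3.56 CPM in siNAT10 (SD, n = 4 each), and its log2 fold change was 0.01 (SE 0.13, edgeR adjusted p 0.98). Between batches TFEB fell by 0.74 on the log2 scale (SE 0.13, edgeR adjusted p 8.1e-04), the same direction as BIRC7. Of all genes tested, 12.2% were called lower in batch 2, and a link between TFEB and BIRC7 was not tested. Of the 5 melanocyte markers TYR and TYRP1 were at 0, MLANA had at most 7 counts and DCT at most 4, and PMEL was counted in all 8 libraries, at 1.18 to 3.39 CPM.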

How the data were processed

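The authors deposited raw counts per gene for 8 3' end RNA libraries of HepG2 cells. Per the submitters' processing notes, reads were trimmed with Trim Galore 0.6.10 and cutadapt 3.5, aligned to GRCh38 with STAR 2.7.9a and counted with featureCounts. Which annotation was counted, whether strand was used and how reads in several genes were handled are not given in the sources used here, and the labels name both directions of the library kit. Of 86369 identifiers, 61458 were found in GENCODE release 44, which supplied names and positions. Library totals of 9731718 to 27977110 counts set the precision.

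Counts were fitted with edgeR 4.0.16 in R 4.3.3 (limma 3.58.1), with TMM scaling, batch and siRNA as terms and the default filter (minimum count 10). The quasi-likelihood test was used with Benjamini-Hochberg adjustment over 13840 genes and a threshold of 0.05, and the script was tested on simulated data. Intervals are at 95%, and CPM are TMM-scaled. The genes and lists were chosen with earlier results of these data known, so the siRNA contrast is a description for the 8 genes. The share of the wider lists called in that contrast is likewise a description. Named genes were these 8, NAT10, every called gene and the most abundant gene of each list, the neighbours of BIRC7 within 100000 bases, and the 5 genes best correlated with BIRC7 (log2 CPM, prior count 2, batch means removed, mean of at least 8 CPM). DFFB, BCL2L11, TAB1, RNF31 and IKBKG were named after their values were seen. Samples with the same replicate number deviated together from their group means (correlations 0.39, 0.38, 0.45 and 0.36). These samples also share a batch, and batch was not removed, so the correlations cannot show that the numbers pair the samples. A fit with the replicate block was run as an alternative. The other alternatives were no batch term, DESeq2 1.42.0, RLE factors, library size alone, other filters, each batch alone, thinning to the smallest library, and leaving out each library. The values of 1 listed gene are not reported here.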

Additional observations from a re-analysis of the deposited data

How the results depend on the processing

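The siRNA comparison called 315 genes, 113 higher and 202 lower. It called 15 without the batch term, 601 by DESeq2, 595 without a filter on low counts, 173 in batch 1 alone, 0 in batch 2 alone (edgeR, 946 at an unadjusted p under 0.05), and 75 to 286 when 1 library was left out. With library size alone the split was 138 higher and 149 lower. The fit with the replicate block called 454 genes and gave BIRC7 0.96 on the log2 scale. In the lists the block added DFFB and changed no other call. The log2 fold change of BIRC7 was 0.99 when batch was left out of the model and 0.81 in batch 2 alone, and in neither setting was BIRC7 called. It was 0.88 to 1.05 when 1 library was left out. The interaction called 0 genes, 1 by DESeq2, 15 without a filter and 0 to 2 when 1 library was left out. List genes called higher numbered 2, against 0 without the batch term, 0 in batch 2 alone, 1 after thinning and 1 to 3 when 1 library was left out. List genes called lower numbered 1, against 0 without the batch term, with library size alone, in either batch alone and after thinning, and 0 to 1 when 1 library was left out. Directions reversed for values near 0. For siRNA these were BIRC6 in batch 1 alone (-0.032; -0.063 to 0.15 with 1 library left out), HTRA2 in batch 2 alone (-0.039; -0.069 to 0.13) and CASP9 in batch 2 alone (0.049; -0.12 to 0.037). For batch it was HTRA2, at -0.015 with library size alone, -0.018 without a filter, -0.042 after thinning and -0.11 to 0.089 with 1 library left out. For the interaction these were XIAP, at 0.033 with library size alone, 0.034 after thinning and -0.32 to 0.17 with 1 library left out, BIRC6 (-0.11 to 0.45) and HTRA2 (-0.33 to 0.15). The cause was not tested. The precision of BIRC3 is limited by its 50 to 230 counts per library.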

Other observations

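DIABLO was not the only gene of the pathway without usable counts. Of the 81 genes in the group and the wider lists, 17 stayed under 1 CPM in every library, among them RNF31, the catalytic subunit of the linear ubiquitin ligase complex that acts beside the cIAPs, at no more than 0.05 CPM, and IKBKG, the regulatory subunit of the IkB kinase, at 0. Another protein-coding gene lies on the same strand over the last 1000 bases of 2 of these 17 genes, DIABLO and RNF31, and of 1 of the other 64. Overlap was not assessed for BIRC8, which is among the 17. Over all protein-coding genes, 751 of 2056 with such an overlap passed the filter on low counts (36.5%), against 10150 of 17982 without one (56.4%). Whether overlap or a lack of expression lay behind the low counts was not tested.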
